A study of Mus musculus with 32 samples.

Results

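Ankrd1, Xirp1, Xirp2, Synpo2l, Enah, Csrp3, Ldb3 and Des, 8 stress responsive genes of the cardiac Z-disc and its actin-binding partners, were followed in mouse ventricles. The members were every probe set (a group of short probes on the array that reports 1 transcript) annotated with 1 of these symbols alone, on 2 types of Affymetrix expression array. This gave 16 of 24965 probe sets, 8 on each array type, and 14 of the 16 were bright enough to test, among 13984 tested in all. The genes were chosen by, among other things, their signals in failure against wild type ventricles: Synpo2l and Xirp2 were known to be past the test's threshold there and Ankrd1 to be higher. That comparison is therefore given as a description, without p-values for the members.

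Total RNA came from the cardiac ventricle of 3 groups of mice. The failure and hypertrophy groups carried a cardiac specific AT1 transgene and were labelled as in cardiac failure or as having cardiac hypertrophy; the wild type group carried none that the labels name. Each array type was used for 3 failure, 8 hypertrophy and 5 wild type arrays, which makes 32 arrays. AT1 is not spelled out in the labels, and the promoter of the transgene and the mice's age, sex and strain are not given there. Nothing there ties arrays of a group to separate animals, and p-values cover only the variation among these arrays, which can be technical in part. Nor do the labels say whether arrays of the 2 types with the same number hold the same RNA. In whole ventricle, fewer cells of a type and less RNA per cell cannot be told apart.

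The Z-disc is the structure at each end of a sarcomere where thin actin filaments of neighbouring sarcomeres are anchored. It carries force sideways to the cell membrane through costameres and end to end through the intercalated disc, and it is also a place from which load is signalled to the nucleus. Ankrd1 is a titin-binding ankyrin repeat protein that also acts in the nucleus, and Csrp3 (muscle LIM protein) binds at the Z-disc and can likewise enter the nucleus. Xirp1 and Xirp2 are Xin repeat proteins that bind and protect actin filaments, mainly at the intercalated disc and Z-disc. Synpo2l is a synaptopodin family protein of the Z-disc, Enah (Mena) promotes actin filament elongation, Ldb3 (also called Cypher or ZASP) is a PDZ and LIM protein that binds alpha-actinin, and Des, desmin, forms the intermediate filaments that link Z-discs.

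Signals are deposited intensities on a linear scale. For tests they were floored at the 20th percentile of the array type (a signal of 39.5 for the first type and 27.5 for the second) and turned into log2, and a change with a Benjamini-Hochberg adjusted p under 0.05 in limma is called. Signals of different probe sets are not compared as transcript levels; for Xirp2 the ratio of 2 probe sets is followed from array to array. Array medians ranged from 91.8 to 121 (first type) and from 69.3 to 80.6 (second type), both lowest in hypertrophy replicate 1. Of the listed cardiomyocyte markers, 8 of 9 lay on the first type, with summed signals of 48586 to 49500 in failure, 42827 to 53804 in hypertrophy and 45713 to 51546 in wild type arrays. Of the skeletal muscle markers, 4 of 9 passed the brightness filter. The 7 fibroblast markers summed to 3348, 6243 and 7006 in failure, 2214 to 5228 in hypertrophy and 3353 to 4090 in wild type arrays, and the 3 atrial markers of the first type to 417, 618 and 1519 in failure, 200 to 1044 in hypertrophy and 336 to 854 in wild type arrays. Of these, the atrial light chain gene Myl7 had a median signal of 506 in failure, 173 in hypertrophy and 156 in wild type arrays, and Myl4 had 69.8 in failure, 106 in hypertrophy and 195 in wild type arrays. Among the fibroblast markers, median signals in failure and wild type arrays were 1088 and 255 for Col3a1, 606 and 182 for Col1a1, and 680 and 106 for Postn. They were 267 and 135 for Lum and 117 and 77.8 for Pdgfra. Dcn, the brightest, had 2970 and 2536, and Col1a2 had 462 and 468. Sums of smooth muscle, endothelial and macrophage markers overlapped between the groups. Each marker gene was judged by its brightest probe set of an array type, where that was bright enough to test. None of these was called in any comparison, and the part of other cell types in the members' values was not tested. The 5′ to 3′ signal ratio of the Gapdh control probes, which falls when RNA is degraded, was low in hypertrophy replicates 6 and 7 on both types (0.468 and 0.0487 on the first, 0.379 and 0.0414 on the second). No arrays of a type held identical values.

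In 10 of the 14 tested member probe sets all failure arrays stood above all wild type arrays, beside 9.17% of all tested probe sets, and in 0 of 14 did all hypertrophy arrays, beside 0.300%. In Des, Enah 163866_at, Ldb3 160354_at and Ldb3 164912_r_at failure and wild type arrays overlapped. In failure against wild type, 12 of 14 tested probe sets were higher, beside 59.7% of all tested probe sets, with a median log2 change of 0.79 over the members and 0.05 over all. Enah 163866_at, among the 12, turned sign when the arrays were scaled by quantiles or medians, and the median of all probe sets on the 2 types was 0.04 and 0.06 as deposited and -0.05 and -0.03 with median scaling. In hypertrophy against wild type, 7 were higher and 7 lower, beside 52.0% higher among all, with a median of 0.08 against 0.01. In failure against hypertrophy 13 were higher, beside 58.5%, with a median of 0.64 against 0.04, and Ldb3 160354_at among them turned sign with median scaling. The 5′ to 3′ ratio of the Actb control probes also moved with failure: on the first type it was 0.765 to 1.10 in failure, 0.357 to 0.992 in hypertrophy and 0.545 to 0.752 in wild type arrays, with no overlap between failure and wild type. With the Actb ratio as a covariate, a setting added after the data were seen, 4 members were called in failure against wild type. Without it 2 were called. Over all tested probe sets of the first and second type, calls rose from 10 and 25 to 40 and 102. The rise was thus not particular to the members. The plot of signals by array shows all members. The plot of changes shows the 3 comparisons for each.

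**Figure D1:**
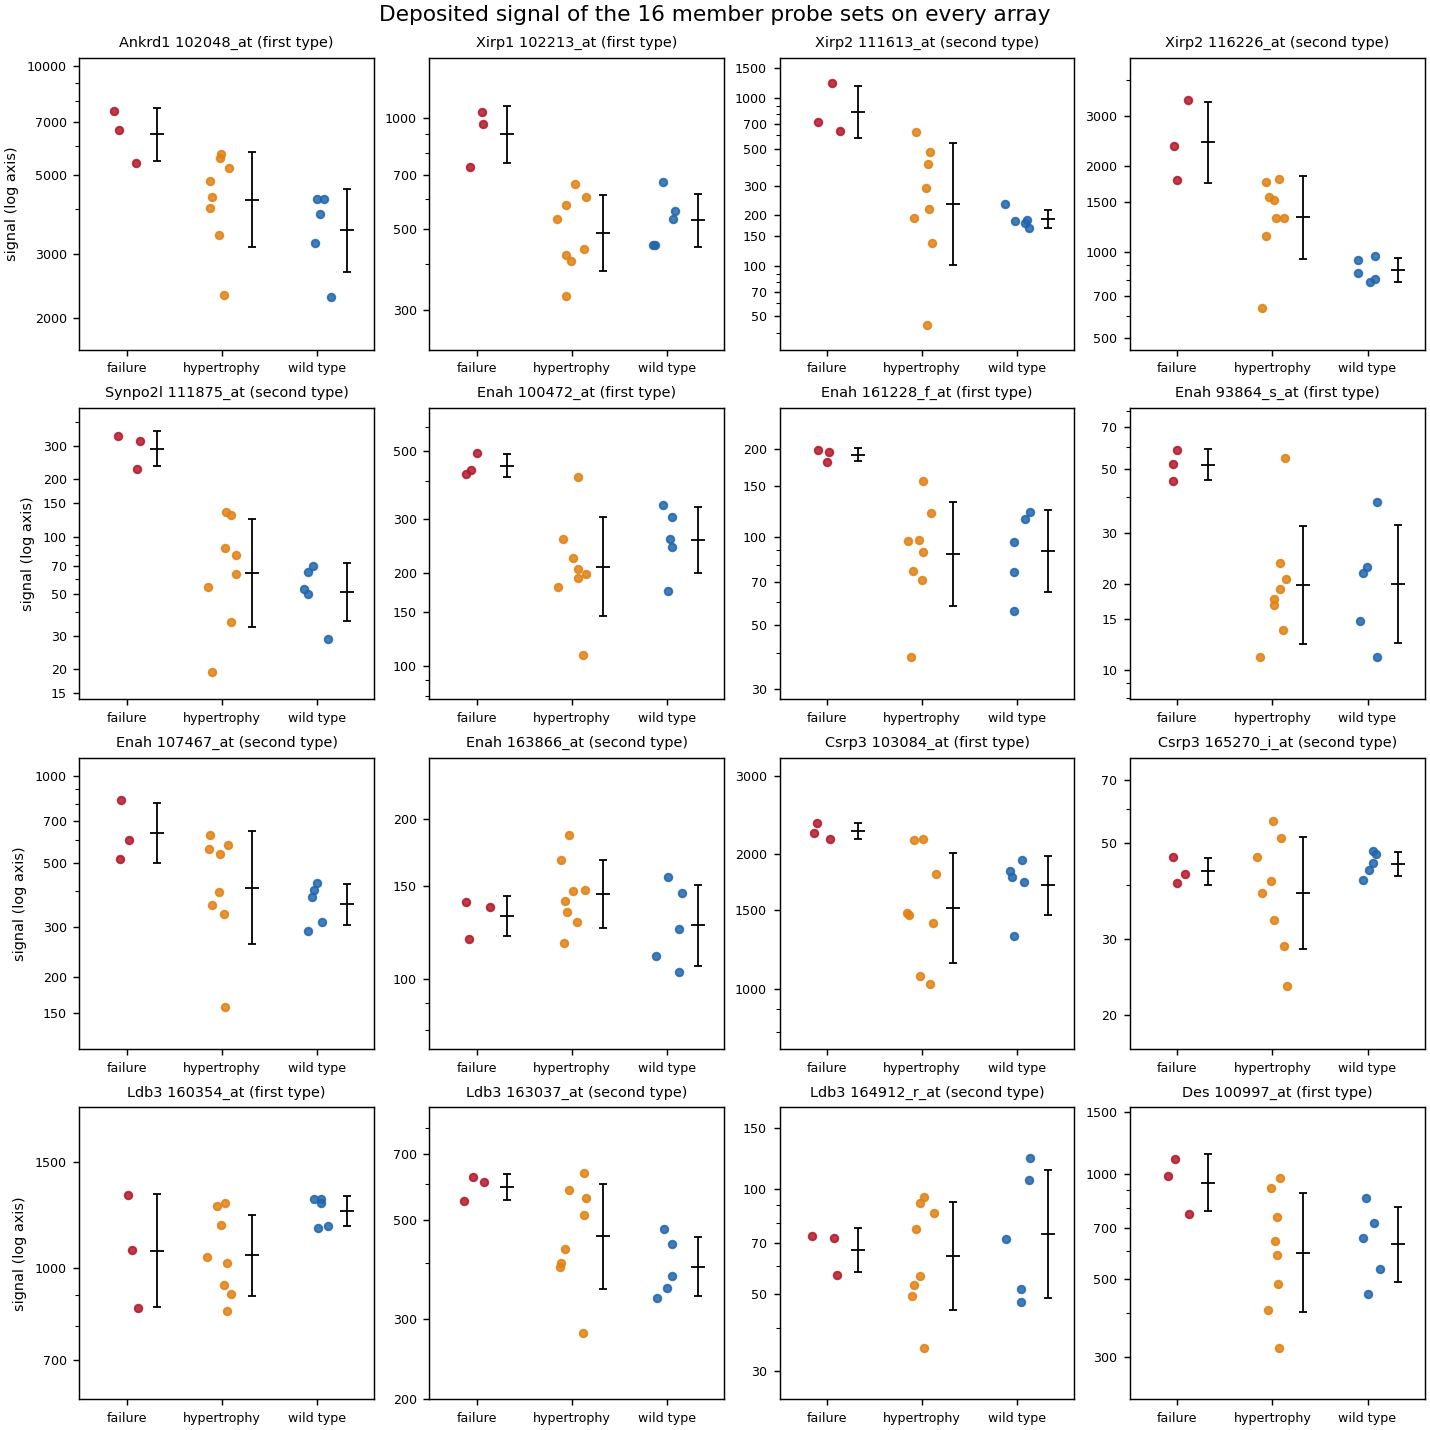
Signal of each member probe set (log axis, deposited intensity) on every array, with failure at the left, then hypertrophy and wild type. Points are arrays and black bars are the geometric mean ± SD on the log scale (n = 3, 8 and 5); the failure arrays of Synpo2l sit at 227 to 339, above all others.

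**Figure D2:**
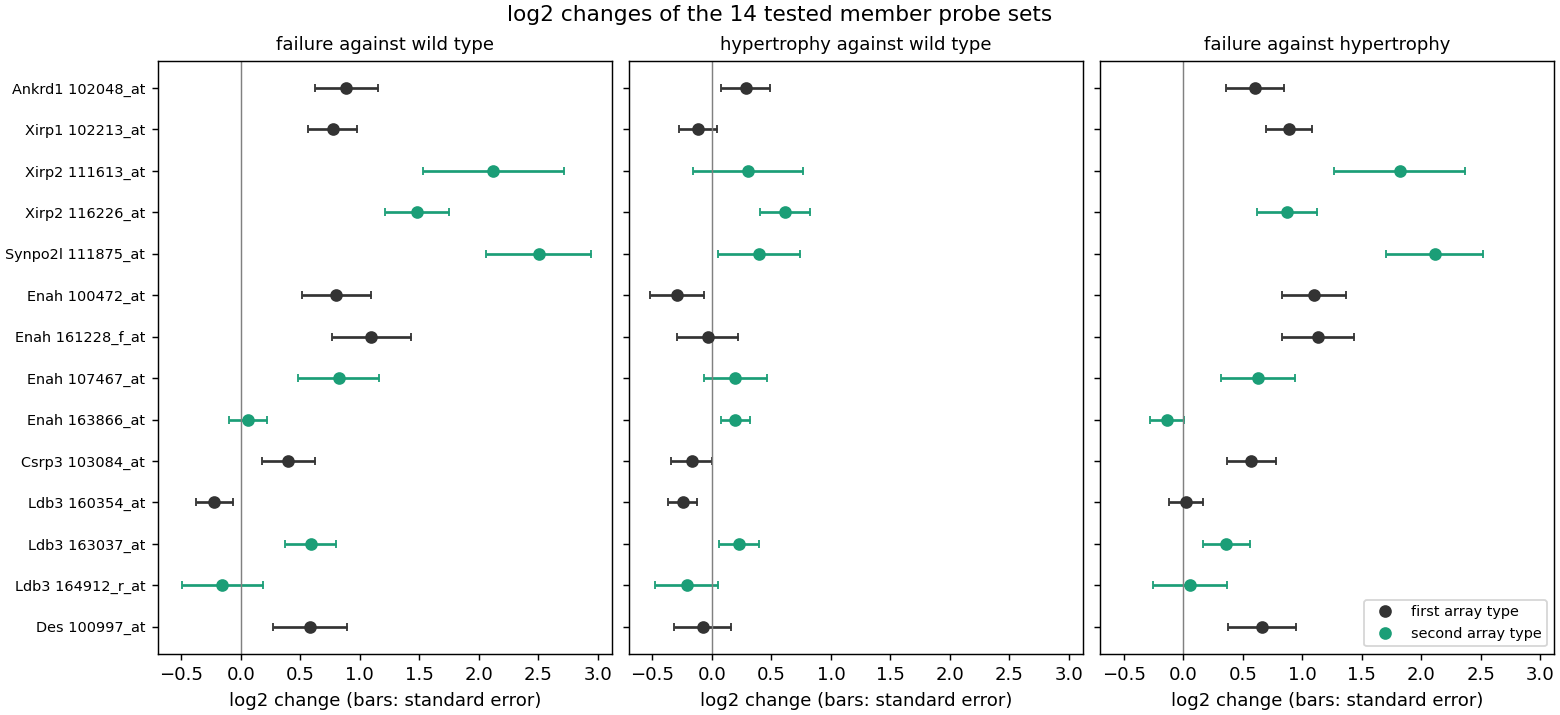
Log2 change of each tested member probe set with its standard error in failure against wild type, hypertrophy against wild type and failure against hypertrophy, coloured by array type. The members' medians in these panels are 0.79, 0.08 and 0.64.

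Ankrd1 belongs to the titin-linked stress proteins and is transcribed from a promoter on the minus strand (RefSeq, GRCm38.p6). The sequence is shown because MCAT elements, bound by TEAD factors, are a described feature of several muscle promoters. The 250 bases before the annotated start, at chr19:36119845-36120094, hold the MCAT core CATTCC on the opposite strand at 210 to 205 and at 123 to 118 bases upstream, in capitals as its complement.
Ankrd1 promoter: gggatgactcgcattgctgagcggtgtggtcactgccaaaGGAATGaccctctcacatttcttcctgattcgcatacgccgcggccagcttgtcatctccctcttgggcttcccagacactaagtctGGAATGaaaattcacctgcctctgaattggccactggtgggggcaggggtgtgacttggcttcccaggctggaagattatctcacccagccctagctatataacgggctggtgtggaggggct
The core was found on either strand in 12.6% of 32851 mouse promoters of the same length, so a match is a common feature and no more than a description.

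Ankrd1 signal was 7529, 6671 and 5395 in failure arrays. In hypertrophy arrays it ran from 2311 to 5718 with a median of 4554, and in wild type arrays it was 4281, 3228, 3882, 4278 and 2285. All failure arrays stood above all wild type arrays, and 5 of 8 hypertrophy arrays did. The log2 change was 0.89 ± 0.26 (SE) for failure against wild type. It was 0.28 ± 0.21 for hypertrophy against wild type, with limma adjusted p = 0.960, and 0.60 ± 0.24 for failure against hypertrophy, with adjusted p = 0.413. Neither passed the threshold of 0.05.

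Csrp3 signal was 2237, 2169 and 2352 in failure arrays, 1024 to 2159 with a median of 1470 in hypertrophy arrays, and 1940, 1314, 1837, 1731 and 1782 in wild type arrays. The 3 failure arrays stood above all arrays of the other groups. The differences were small: 0.40 ± 0.22 on the log2 scale against wild type, and 0.57 ± 0.20 against hypertrophy (limma adjusted p = 0.366). Hypertrophy against wild type was -0.17 ± 0.17 (adjusted p = 0.976). A further Csrp3 probe set, 165270_i_at, averaged 43.1 ± 3.12 in failure, 39.9 ± 11.3 in hypertrophy and 44.9 ± 2.81 in wild type arrays (SD, n = 3, 8 and 5) and was too dim to test.

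Xirp2 encodes the larger, muscle-specific Xin repeat protein. Its RefSeq promoter on the plus strand, chr2:67445752-67446001, holds a MEF2-type element, in capitals, 74 to 65 bases before the start, and is printed because MEF2 factors drive many muscle genes.
Xirp2 promoter: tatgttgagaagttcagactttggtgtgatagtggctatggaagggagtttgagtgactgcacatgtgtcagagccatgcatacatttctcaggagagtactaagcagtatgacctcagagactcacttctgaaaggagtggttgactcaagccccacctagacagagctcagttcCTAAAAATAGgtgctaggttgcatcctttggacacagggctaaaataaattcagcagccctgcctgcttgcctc
The MEF2 element was present in 2.92% of all promoters of this length, and in 3 of the 10 member promoters, which came from Xirp2 and Synpo2l.

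Synpo2l carries such an element 109 to 100 bases before its start on the minus strand, in capitals, at chr14:20668355-20668604, and its second start carries another 144 to 135 bases upstream. The promoters printed were picked for the matches they hold, so the matches support nothing about the failure arrays.
Synpo2l promoter: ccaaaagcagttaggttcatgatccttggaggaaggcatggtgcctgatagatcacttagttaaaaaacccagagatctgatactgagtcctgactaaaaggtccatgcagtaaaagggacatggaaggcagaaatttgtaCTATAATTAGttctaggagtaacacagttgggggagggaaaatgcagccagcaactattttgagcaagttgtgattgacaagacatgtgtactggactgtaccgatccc
A CArG box, the element bound by serum response factor, was found only in Ldb3 among the 7 genes whose promoters are in the table. Whether any of these elements is used in the heart was not measured.

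Xirp2 was measured by 2 probe sets of the second array type. The brighter, 116226_at, read 3406, 2341 and 1781 in failure arrays, 639 to 1804 with a median of 1419 in hypertrophy arrays, and 846, 939, 806, 972 and 784 in wild type arrays. Failure and wild type arrays did not overlap, and 7 of 8 hypertrophy arrays were above every wild type array. The eighth, hypertrophy replicate 1, was the lowest array of all 16 at 639. The change was 1.48 ± 0.27 (log2, SE) for failure against wild type, or 2.8-fold. The 7 fibroblast markers, on the first array type, had their highest sums in failure replicates 1 and 2, at 6243 and 7006. In failure replicate 3 the sum was 3348, below the wild type range of 3353 to 4090. These sums are weighted towards Dcn, the brightest of the 7. The medians of Col3a1, Col1a1 and Postn, given above, differed by more between failure and wild type than the sums did. The summed cardiomyocyte markers overlapped between the groups. A link between these sums and Xirp2 was not tested.

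For hypertrophy against wild type this probe set differed by 0.61 ± 0.21, with limma adjusted p = 0.353, and without hypertrophy replicate 1 by 0.76 with adjusted p = 0.0351. Whether this probe set was called in hypertrophy thus turned on that array. For failure against hypertrophy it differed by 0.87 ± 0.25 (adjusted p = 0.382).

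The dimmer Xirp2 probe set, 111613_at, read 1235, 638 and 715 in failure arrays, 44.4 to 629 with a median of 254 in hypertrophy arrays, and 188, 185, 180, 167 and 233 in wild type arrays. In this probe set the failure arrays stood above all others, and hypertrophy arrays reached both above and below the wild type range. Changes were 2.12 ± 0.59 against wild type and 1.82 ± 0.55 against hypertrophy (log2, SE), with limma adjusted p = 0.389 in the comparison with hypertrophy. Hypertrophy against wild type was 0.31 ± 0.46 (adjusted p = 0.871). Leaving out single arrays gave 0.10 to 0.65 for this last difference, and leaving out both hypertrophy arrays of low Gapdh ratio gave 0.83 (adjusted p = 0.304). Failure against hypertrophy was 1.19 with the Actb ratio and 1.25 with the Gapdh ratio as a covariate.

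The ratio of the dimmer to the brighter Xirp2 probe set varied with the 5′ to 3′ signal ratio of the Actb control probes. On the 8 arrays of higher Actb ratio (0.810 to 1.37) it was 0.272 to 0.453, and on the 8 of lower ratio (0.494 to 0.772) it was 0.0284 to 0.224. The Actb ratio averaged 1.09 ± 0.207 in failure, 0.825 ± 0.278 in hypertrophy and 0.747 ± 0.144 in wild type arrays (SD, n = 3, 8 and 5). With the Actb ratio as a covariate, failure against wild type was 1.31 for 111613_at and 1.78 for 116226_at. The same values without it are 2.12 and 1.48. The covariate thus lowered the change in the dimmer probe set and raised it in the brighter, and the dimmer moved by more.

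**Figure D3:**
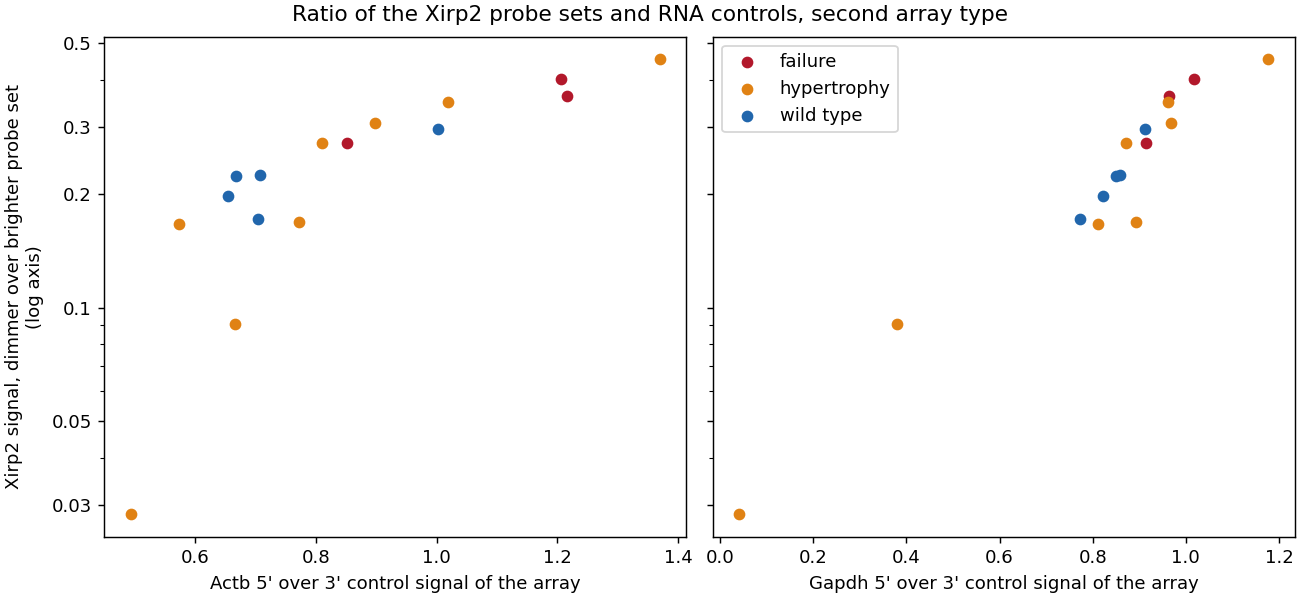
Ratio of Xirp2 probe sets 111613_at to 116226_at on each second-type array, against the Actb and the Gapdh 5′ to 3′ signal ratio. The lowest value, 0.0284, is hypertrophy replicate 7, the array of lowest Gapdh ratio.

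Xirp1 encodes the founding Xin protein of the intercalated disc. Its signal was 734, 1036 and 958 in failure arrays, 329 to 660 with a median of 486 in hypertrophy arrays, and 559, 451, 530, 668 and 452 in wild type arrays. Every failure array stood above every other array. Changes were 0.77 ± 0.21 against wild type, 0.89 ± 0.19 against hypertrophy (limma adjusted p = 0.145), and -0.12 ± 0.16 for hypertrophy against wild type (adjusted p = 0.981).

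Synpo2l showed the largest member change. Its signal was 316, 339 and 227 in failure arrays, 19.5 to 135 with a median of 71.7 in hypertrophy arrays, and 69.9, 53.2, 50.0, 64.9 and 28.8 in wild type arrays. The lowest failure array, 227, was above the highest hypertrophy array, 135, and the highest wild type array. The probe set passed the brightness filter through 3 failure and 4 hypertrophy arrays, and 0 of 5 wild type arrays reached their median there.

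For Synpo2l, failure exceeded wild type by 2.51 ± 0.44 (log2, SE), or 5.68-fold. Failure exceeded hypertrophy by 2.11 ± 0.41, or 4.32-fold, with limma adjusted p = 0.0786. The 95% interval by a normal approximation from the SE was 1.31 to 2.91, narrower than limma's t distribution would give. Without hypertrophy replicate 1 the difference was 1.93 with adjusted p = 0.0369, while calls over all second-type probe sets went from 2 to 12. Adjusted p was 0.0641 with quantile scaling and 0.0816 with median scaling. It was 0.0865 with the Gapdh ratio and 0.0373 with the Actb ratio as a covariate. Synpo2l was not called in this comparison when any single failure array was left out. Hypertrophy against wild type was 0.39 ± 0.34 (adjusted p = 0.758).

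Enah was represented by 5 probe sets. The probe set 100472_at read 423, 434 and 495 in failure arrays, 109 to 411 with a median of 204 in hypertrophy arrays, and 333, 259, 243, 306 and 176 in wild type arrays. No failure array overlapped with the other groups. The 161228_f_at probe set, marked as shared with a gene family, showed the same layout, with 196, 199 and 181 in failure arrays, 38.7 to 156 in hypertrophy arrays and 55.8 to 122 in wild type arrays.

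On the second array type, Enah 107467_at read 517, 597 and 826 in failure arrays, 158 to 624 in hypertrophy arrays and 289 to 425 in wild type arrays. The other second-type probe set, 163866_at, showed no such difference, with 137, 119 and 140 in failure arrays, 117 to 187 in hypertrophy arrays and 103 to 156 in wild type arrays. The log2 changes against hypertrophy were 1.10 ± 0.27, 1.13 ± 0.31 and 0.63 ± 0.31 for the first 3 and -0.14 ± 0.15 for 163866_at, with limma adjusted p of 0.173, 0.200, 0.602 and 0.828. The log2 changes against wild type were 0.80 ± 0.29 for 100472_at, 1.10 ± 0.33 for 161228_f_at, 0.82 ± 0.34 for 107467_at and 0.06 ± 0.16 for 163866_at. Hypertrophy differed from wild type by -0.29 ± 0.23, -0.03 ± 0.26, 0.20 ± 0.26 and 0.20 ± 0.12 in the same order, with limma adjusted p from 0.644 to 0.997. The remaining probe set, 93864_s_at, whose suffix marks probes shared with other transcripts, read 45.7, 52.1 and 58.5 in failure arrays, 11.1 to 54.6 in hypertrophy arrays and 11.1 to 38.5 in wild type arrays, and was too dim to test. Probe sets of Enah therefore disagreed, and whether they detect different transcripts was not tested.

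Ldb3 differed between its 3 tested probe sets. Probe set 163037_at read 622, 604 and 549 in failure arrays, 280 to 634 with a median of 471 in hypertrophy arrays, and 477, 442, 335, 353 and 375 in wild type arrays, a change of 0.59 ± 0.21 (log2) for failure against wild type. Probe set 160354_at read 857, 1071 and 1322 in failure arrays, 845 to 1284 in hypertrophy arrays and 1163 to 1303 in wild type arrays, a change of -0.22 ± 0.16. In this probe set 5 of 8 hypertrophy arrays were below all wild type arrays, with -0.25 ± 0.12 and limma adjusted p = 0.960. Failure against hypertrophy was 0.36 ± 0.20 in 163037_at and 0.03 ± 0.14 in 160354_at (adjusted p = 0.629 and 0.973), and the sign of the second turned with the scaling. The third probe set, 164912_r_at, was dim, with 72.2, 73.5 and 56.8 in failure arrays, 34.9 to 95.2 in hypertrophy arrays and 47.3 to 123 in wild type arrays, and its differences were within 0.21 on the log2 scale.

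Des signal was 766, 986 and 1103 in failure arrays, 319 to 970 with a median of 613 in hypertrophy arrays, and 722, 455, 655, 851 and 536 in wild type arrays. Failure overlapped both other groups. The differences were 0.58 ± 0.31 against wild type and 0.66 ± 0.29 against hypertrophy (limma adjusted p = 0.446). Hypertrophy against wild type was -0.08 ± 0.24 (adjusted p = 0.992), and its sign turned when hypertrophy replicate 1 or 6 or wild type replicate 4 was left out.

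Counted over the members, 2 of 14 probe sets, Synpo2l and Xirp2 116226_at, were called higher in failure than in wild type, beside 0.207% of all tested probe sets. As deposited, 9 of 10 calls over all probe sets of the first type and 20 of 25 of the second were higher in failure; with median scaling 15 of 33 and 19 of 40 were, and with quantile scaling 20 of 30 and 20 of 35. Because the comparison chose the members, nothing is read from these shares. The count of 2 became 0 when failure replicate 1, failure replicate 2, wild type replicate 3 or wild type replicate 5 was left out. It became 1 without wild type replicate 1 or 4, and 3 without hypertrophy replicate 7. Calls over all probe sets, 10 and 25 on the 2 types, moved too. They were 0 and 5 without failure replicate 1, and 1 and 4 without failure replicate 2. Without wild type replicate 3 they were 1 and 6, and without wild type replicate 5 they were 2 and 9. Without wild type replicate 1 or 4 they were 1 and 9, and without hypertrophy replicate 7 they were 28 and 60.

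In hypertrophy against wild type, limma called 0 of 14 members (1 at an unadjusted p under 0.05), where 0.0858% of all probe sets were called and 7.12% passed the unadjusted limit. Without hypertrophy replicate 1 it called 1, Xirp2, while calls over all second-type probe sets went from 12 to 26. Over the 14 members adjusted p ran from 0.353 to 0.997.

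In failure against hypertrophy, limma called 0 of 14 members (9 at an unadjusted p under 0.05), beside 0.0143% called and 9.36% passing the unadjusted limit over all tested probe sets. In 6 of 14 failure lay entirely above hypertrophy, beside 1.47%. This comparison shares its failure arrays with the one that chose the members. Adjusted p ran from 0.0786 to 0.973, and leaving out hypertrophy replicate 1 or 3 gave 1 call, Synpo2l or Enah 100472_at. Over all tested probe sets of the first and second type there were 0 and 2 calls. These became 0 and 12 without hypertrophy replicate 1, and 6 and 0 without hypertrophy replicate 3.

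The hypertrophy arrays differed from each other over many members at once, counting the arrays of both types with the same number together. Hypertrophy replicate 1 was the lowest of its group in 10 of 14 probe sets, with a median of -0.64 (log2) relative to the wild type mean, and also had the lowest median signal. Hypertrophy replicate 3 was the highest in 5 and had a median of 0.60, with 12 of 14 above the wild type mean. The 3 failure arrays had medians of 0.60, 0.75 and 0.84. Hypertrophy replicate 3 thus reached the level of the lowest failure array, as the map of arrays shows.

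**Figure D4:**
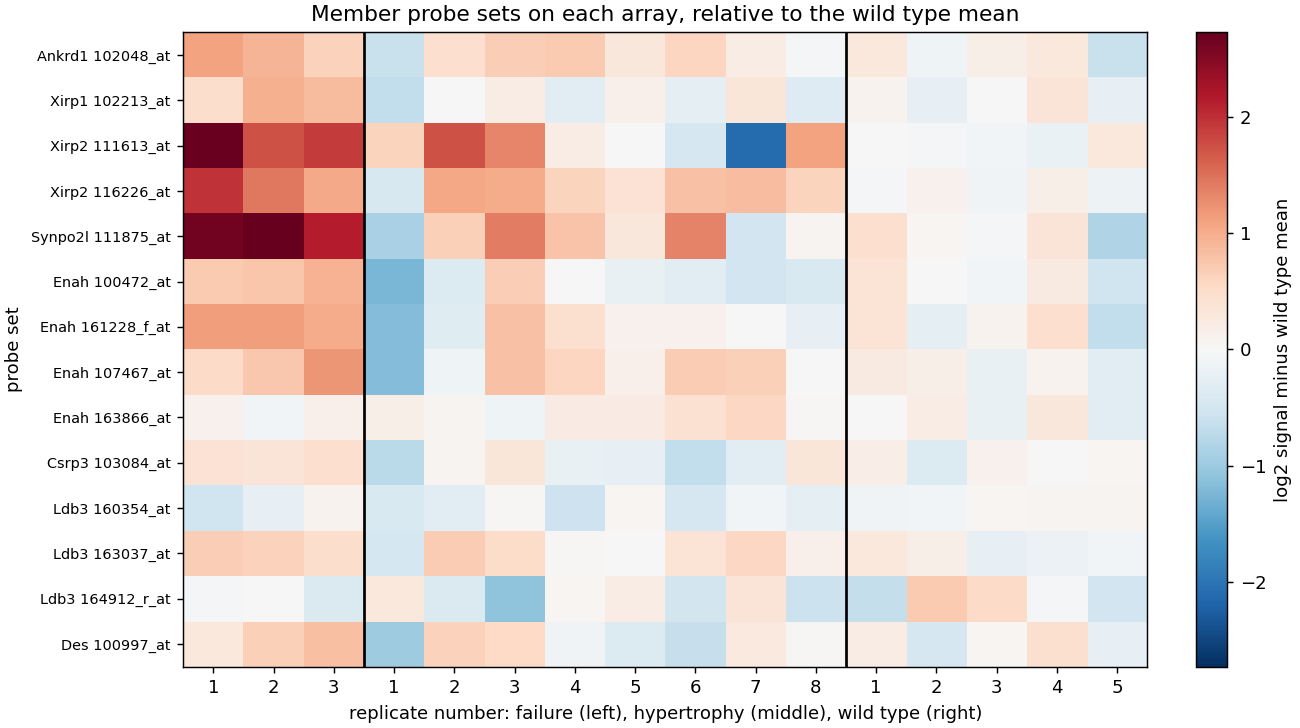
Log2 signal of each tested member probe set minus its wild type mean, per replicate number. Failure columns are at the left, with medians over the members of 0.60 to 0.84; hypertrophy replicate 1 has a median of -0.64 and replicate 3 of 0.60.

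The genes whose signals ran most closely with a member over the 16 arrays were named for the brightest tested probe set of each. Correlations (Pearson r of log2 signal) are descriptions; the points share array, RNA and scaling, and group differences add to them. Ankrd1 ran with Papss1 (0.93), a sulfate donor synthesis enzyme, with the surfactant protein gene Sftpd (0.92) and with Enah 161228_f_at (0.90). Xirp2 ran with Clic5 (0.94), a chloride channel family protein, with Fat1 (0.93), an atypical cadherin, and with Gab2 (0.92), an adaptor. Synpo2l ran with Acp5 (0.93), Mocs1 (0.86) and Clic5 (0.86). Xirp1 ran with the transglutaminase Tgm2 (0.89), with Myo1c (0.86) and with the connective tissue growth factor gene Ccn2 (0.86).

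Enah 107467_at ran with Ehd4 (0.96), Samd4 (0.93) and Akap2 (0.92). Csrp3 ran with Cnbp (0.95), Vps37c (0.94) and Srp68 (0.93), and 117 of 6175 probe sets passed 0.8 with it. Des ran with Sec24c (0.91), Hspa4 (0.89) and Slc39a7 (0.89), and Ldb3 with Ptov1 (0.86), Ethe1 (0.82) and Kcnk3 (0.81).

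Other genes of the same structures were listed in 5 groups of 79 genes, of which 56 were tested by 83 probe sets. None of the 83 was called in any of the 3 comparisons, with 13, 7 and 12 at an unadjusted p under 0.05 in failure against wild type, hypertrophy against wild type and failure against hypertrophy (beside 11.4%, 7.12% and 9.36% of all tested probe sets). In failure against wild type 53 of 83 were higher, beside 59.7% of all tested probe sets, with a median of 0.13 against 0.05 for all.

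Sorbs2, a costamere and Z-disc adaptor, averaged 272 ± 44.4 in failure and 91.0 ± 11.3 in wild type arrays (SD, n = 3 and 5), a log2 change of 1.57 ± 0.38 with limma adjusted p = 0.0834. Lmod2, which nucleates actin in the sarcomere, averaged 805 ± 149 in failure and 424 ± 38.2 in wild type arrays, a change of 0.91 ± 0.22 (adjusted p = 0.0729). The filamin gene Flnc differed by 0.71 ± 0.17 (adjusted p = 0.0892). None of these passed the threshold.

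In the same comparison the talin genes, whose proteins tie integrins to actin, differed by 0.66 ± 0.21 in Tln1 99448_at and 0.43 ± 0.12 in Tln2 114829_at (limma adjusted p = 0.252 and 0.117), and by 0.12 and 0.14 in the second tested probe set of each, Tln1 162089_r_at and Tln2 165320_f_at. Hspb7, a small heat shock protein of the heart, differed by 0.55 ± 0.24 (adjusted p = 0.364), and by 0.76 ± 0.22 in failure against hypertrophy (adjusted p = 0.382). The intermediate filament gene Synm ran the other way, by -0.49 ± 0.19 against wild type (adjusted p = 0.294) and -0.58 ± 0.17 against hypertrophy (adjusted p = 0.389). In hypertrophy against wild type, Ttn 113975_at differed by -0.47 ± 0.15 (adjusted p = 0.347) and Pfn1 by -0.41 ± 0.13 (adjusted p = 0.960).

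The other probe sets named by the same rule were likewise not called, and probe sets of a gene often disagreed. In failure against wild type Fhl1 97500_g_at, of a LIM protein that binds titin, differed by 0.50 ± 0.17 (limma adjusted p = 0.277) and Fhl1 97498_at by 0.25. Myot differed by 0.79 ± 0.34 (adjusted p = 0.357). The cofilin gene Cfl2 differed by 0.40 ± 0.19 in 97549_at (adjusted p = 0.469) and 0.06 in 162088_r_at. The co-chaperone gene Bag3 differed by 0.39 ± 0.23 in 96167_at (adjusted p = 0.596) and 0.11 in 161980_f_at. Of 4 Pdlim7 probe sets, 160367_at differed by -0.32 ± 0.17 (adjusted p = 0.518) and the others by -0.11 to -0.02.

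In failure against hypertrophy Fhl1 97500_g_at differed by 0.57 ± 0.16 (limma adjusted p = 0.212) and Fhl1 97498_at by 0.50. The actin capping gene Capzb differed by 0.72 ± 0.22 in 95142_s_at (adjusted p = 0.299), 0.22 in 95141_at and -0.28 in 161329_f_at, so its probe sets did not share a sign. Lasp1 differed by 0.43 ± 0.17 in 93793_at (adjusted p = 0.406) and 0.18 in 93930_at. Ttn 105367_at differed by 0.76 ± 0.46 (adjusted p = 0.670) and Ttn 113975_at by 0.18.

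In hypertrophy against wild type the desmosomal cadherin gene Dsg2 differed by -0.49 ± 0.16 in 104480_at and by 0.28 ± 0.13 in 98319_at, both with limma adjusted p = 0.960 and with opposite signs. Fhl2 differed by -0.24 ± 0.12 (adjusted p = 0.960). Pdlim7 115561_at differed by 0.14 ± 0.08 (adjusted p = 0.608), while the other Pdlim7 probe sets ran from -0.12 to 0.35.

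**Figure D5:**
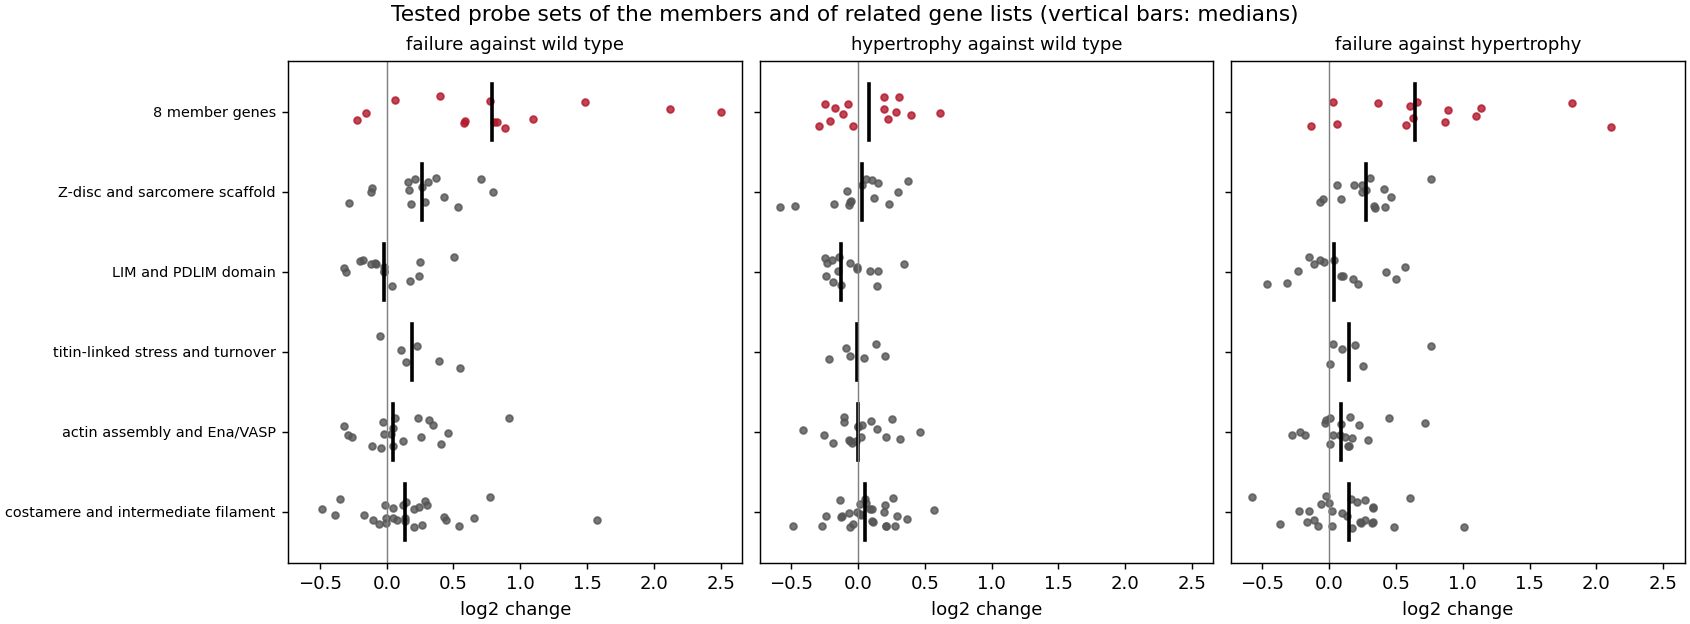
Log2 changes of the tested probe sets of each related gene list and of the members, with median bars, per comparison. In failure against wild type the members' median is 0.79 and the 83 related probe sets' is 0.13.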

How the data were processed

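The 8 genes, the lists of related genes and the tests were chosen with earlier results of these data known. The authors deposited 1 signal intensity per probe set and array. The sources used here do not give how these intensities were summarised or scaled, and they were used unscaled. Gene names come from the platform annotation. Floored low signals make changes of dim probe sets look smaller than they are. Probe sets entered the tests if 3 or more arrays reached the array's own median and they were no control, which were 6980 of 12488 on the first type and 7004 of 12477 on the second. Models were fitted per type over all 16 arrays (limma 3.58.1, R 4.3.3, functions lmFit and eBayes), with adjustment over all tested probe sets per type and comparison. Members were all named. Of the related lists, the rule named any called probe set and, per list and comparison, the 2 of smallest p. Likeness used the 3 genes of highest correlation. Promoters, 250 bases long, come from RefSeq (GRCm38.p6). Arrays give no counts, so their number limits the precision. The alternatives are in the closing section. The fit was tested on simulated data, and figures were drawn with matplotlib 3.10.9.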

Additional observations from a re-analysis of the deposited data

Results flagged for a closer look

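The signals of 3 member probe sets stood far from the other arrays of their group by Dixon's criterion. All 3 lay in the hypertrophy group of 8 arrays. Chance alone gives such a gap in about 1 of 20 groups. The criterion was applied across the 16 member probe sets, so some flags can arise by chance alone. The flags are therefore a description only. In hypertrophy replicate 1, Xirp2 116226_at read 639 and Enah 107467_at read 158, both the lowest of the group. In hypertrophy replicate 3, Enah 93864_s_at read 54.6 while the other 7 arrays were at the floor. The criterion used floored log2 signals, so any value above the floor would have been flagged there. The rate of 1 in 20 does not apply to that flag, and nothing is read from it. The part of the array itself in these values was not tested; hypertrophy replicate 1 also had the lowest median signal on both array types.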

How the results depend on the processing

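Scaling by quantiles or medians, a floor at the 10th percentile, robust variance estimation and joint adjustment left the member counts at 2, 0 and 0 for failure against wild type, hypertrophy against wild type and failure against hypertrophy. In failure against wild type the count became 1 with a filter of at least 8 arrays at the median (Synpo2l was then not tested), 8 with array weights, 7 with only both compared groups in the fit and 4 with the Actb ratio as a covariate. Leaving out single arrays gave 0 to 3. In failure against hypertrophy it became 1 with a floor at the 30th percentile, 4 with array weights and 1 with the Actb covariate, and 0 to 1 without single arrays. In hypertrophy against wild type single omissions gave 0 to 1. For the related genes, failure against wild type gave 1 call without a filter, 13 with array weights, 7 with only both groups, 2 with the Actb and 2 with the Gapdh covariate, and 0 to 4 without single arrays. Failure against hypertrophy gave 1 without a filter and 4 with array weights, and hypertrophy against wild type 0 to 2 without single arrays. Over all tested probe sets, failure against wild type had 10 and 25 calls on the first and second type, 1002 and 428 with array weights, 122 and 193 with only both groups, 40 and 102 with the Actb covariate and 3 and 6 with the replicate block. The causes were not tested. The covariates, and leaving out both hypertrophy arrays of low Gapdh ratio (3 member calls in failure against wild type), were chosen after seeing the data.

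With the replicate number as a block, 0 members were called in failure against wild type; same-numbered arrays deviated together with correlations of -0.19 to 0.36, so the numbers were not taken to pair samples.

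Small changes of Ldb3, Enah and Des probe sets turned sign. Ldb3 160354_at in failure against hypertrophy became -0.065 with median scaling and -0.040 with array weights, and ran from -0.13 to 0.18 without single arrays. Enah 161228_f_at in hypertrophy against wild type became 0.022 with a floor at the 30th percentile, 0.065 with array weights and 0.064 with the Actb covariate, and ran from -0.21 to 0.13 without single arrays. Without single arrays, Des in hypertrophy against wild type ran from -0.19 to 0.051, and Ldb3 164912_r_at in failure against hypertrophy from -0.068 to 0.18. In failure against wild type, Enah 163866_at became -0.031 with quantile and -0.0299 with median scaling and ran from -0.012 to 0.14 without single arrays, and Ldb3 164912_r_at ran from -0.32 to 0.027.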
